A study of Mus musculus with 15 samples.

Results

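The genes described here are those of the voltage-gated sodium and calcium channels and of the potassium channels: 126 of the 24421 genes listed in each of the 3 deposited tables. The rule uses symbols only, but it was set with earlier results of these data known. It takes symbols that begin with Kcn, Cacnb or Cacng and end in a subunit number. For Scn a number and the letter a or b follow, and for Cacna1 a letter from a to i. Genes under an older or longer symbol, such as Scn2a1, fall outside that naming rule, and so does Cacna1s, whose letter lies beyond i. By role, 40 members encode pore or modifier subunits of voltage-gated potassium channels and 11 their accessory subunits. A further 12 belong to potassium channels opened by calcium or sodium, 15 to inward rectifiers and 14 to the two-pore family. Sodium channels give 9 pore and 4 accessory subunits, and calcium channels 9 pore, 4 beta and 8 gamma subunits. One member, Kcnj1, had no read in any library, 125 had at least 1 read somewhere and 94 had reads in all 15 libraries.

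RNA came from whole mouse brain tumours, 3 libraries in each of 5 groups, as poly(A) libraries. The abbreviation HGG means high-grade glioma. EPN means ependymoma, a tumour type named for the ependymal cells that line the ventricles. The groups are HGG control, HGG Sox9-LOF (loss of function), HGG Sox9-GOF (gain of function), EPN control and EPN Sox9-GOF. The labels give neither the strain, age or driver mutations of the mice nor how the function of Sox9, a transcription factor that acts in glia and in cartilage, was changed. They do not say whether replicates are different animals, and p-values may therefore measure only the spread between these libraries, which may be technical.

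Voltage-gated channels open when the membrane potential changes. Sodium channels start the action potential, potassium channels end it and set the resting potential, and calcium channels couple voltage to transmitter release and gene regulation. Neurons use the widest range of these genes, astrocytes rely on the inward rectifier Kcnj10 to clear potassium, oligodendrocyte precursors carry several of them, and heart and muscle use a set of their own.

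Libraries held 4665428 to 14119140 reads, with a median of 10578708. Values below are normalized counts, that is reads rescaled together over the 15 libraries, and a level per kilobase is that count divided by the exon length of the gene. Sox9 itself was 218, 285 and 310 in HGG controls 1, 2 and 3. The libraries labelled Sox9-LOF had 739, 579 and 395, which were higher than every control and so went against that label if it refers to the amount of Sox9 RNA. HGG Sox9-GOF had 1276, 1537 and 1391. Among EPN controls Sox9 was 1045, 1040 and 1189, and EPN Sox9-GOF had 2055, 1834 and 2692. HGG control 1 stood apart from HGG controls 2 and 3. Its 12 neuron markers summed to 7085 normalized counts against 19854 and 57296, and its 6 choroid plexus markers to 109195 against 137 and 92.3. Correlations between the HGG controls were 0.819 to 0.861, against 0.93 to 0.965 between replicates of the other groups. The 5 ependymal and cilia markers summed to 139 to 201 in the EPN controls and to 178 to 411 in the HGG controls, so they did not mark the EPN libraries. In whole tumours, fewer cells of a type and less RNA per cell cannot be told apart.

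The potassium channel pore is built around a short loop whose coding sequence can be read directly, and it is printed for 4 of the potassium channel genes that the results below describe. Capitals mark the in-frame match to the selectivity filter, searched as the codons ACN, then NTN, then GGN, then TAN (first motif) or TTN (second motif), then GGN, within 33 coding bases of the longest coding transcript of each gene (GENCODE, GRCm38). Of 77 potassium pore subunits 64 held one of these motifs, and 0 of the other 49 members did. Among 21614 coding genes 0.319% held the first and 0.315% the second motif. The motifs were searched on the coding strand only.
Kcna2: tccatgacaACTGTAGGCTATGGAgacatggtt
Kcna5: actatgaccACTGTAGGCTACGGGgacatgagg
Kcnd3: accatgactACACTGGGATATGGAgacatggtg
Kcnk10 first pore: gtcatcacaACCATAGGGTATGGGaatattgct
Kcnk10 second pore: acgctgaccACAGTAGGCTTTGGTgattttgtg

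The capitals begin at coding base 1120 of Kcna2, 1405 of Kcna5 and 1099 of Kcnd3, and at 490 and 817 of Kcnk10. Two-pore genes, shown by Kcnk10 at chr12:98429437-98578310 (minus strand), repeat the loop within 1 subunit, and 11 of 14 held at least 2 matches. In GRCm38 the genes lie at chr1:172341210-172374085 (Kcnj10, plus strand), chr11:61022564-61071131 (Kcnj12, plus), chr11:110968033-111027968 (Kcnj16, plus), chr3:107101146-107115005 (Kcna2, plus), chr6:126532551-126535412 (Kcna5, minus) and chr7:24370263-24386690 (Kcnn4, plus).

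Some members are neighbours. Kcnj16 lies next to Kcnj2 (chr11:111066164-111076821), and Kcna2 next to Kcna3 (chr3:107036169-107038070). Values of such pairs are given below gene by gene. For Kcna6, 39.6% of the exon bases overlap a gene on the other strand, as do 49.1% for Kcnj13, 31.1% for Kcnj3 and 16% for Cacnb4. The sources used here do not give the strand setting of the counting, and reads of these members could include some from their partners.

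The 12 members with the highest level per kilobase over the 15 libraries included Kcnj10, Kcnj12, Kcnip3, Kcnab2, Kcnk1, Kcna5, Cacng7, Cacnb3, Kcna1, Kcnj4 and Kcna6. Kcnj10, the astrocytic inward rectifier Kir4.1, averaged 856 per kilobase in HGG controls and 760 in EPN controls. Kcnj12, the inward rectifier Kir2.2, averaged 28.3 per kilobase in HGG controls and 1081 in EPN controls. The order of the leading genes therefore differed between the tumour types, and Kcnj12 and Kcna5 owed their places to the EPN libraries.

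Summed per kilobase, all members reached 7656 ± 3454 (SD, n = 3) in HGG controls, 7829 ± 1974 in HGG Sox9-LOF, 7010 ± 954 in HGG Sox9-GOF, 5979 ± 434 in EPN controls and 4895 ± 802 in EPN Sox9-GOF. HGG control 1, at 3778, lay far below HGG controls 2 and 3 at 8791 and 10399. The gamma subunits, of which Cacng2, 3, 4, 5, 7 and 8 escort AMPA-type glutamate receptors (TARPs), summed to 626 ± 60.3 in HGG controls, 162 ± 10 in EPN controls and 56 ± 39.1 in EPN Sox9-GOF. Potassium accessory subunits summed to 1164 ± 528, 444 ± 116 and 250 ± 4.45 in the same groups. Inward rectifiers summed to 1471 ± 464 in HGG controls and 2059 ± 132 in EPN controls, and Kcnj12 carried that difference. The other 14 inward rectifiers summed to 1442 ± 467 in HGG controls and 977 ± 75.1 in EPN controls. Of the 126 members, 84 had their lowest group mean in EPN Sox9-GOF, against 8 to 15 in each of the other groups. Groups that tie, as for Kcnj1 with no read, were counted under the first of them. The same count was not made over all genes, so the 84 has no background beside it.

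The first comparison asks how the channel genes of ependymoma differ when Sox9 function is raised. Most had lower values in EPN Sox9-GOF than in the EPN controls: 79 of the 92 members tested (mean of at least 10) had a log2 fold change below 0, with a median of -1.46 against 0.04 over all 14591 genes tested. No member passed the adjusted threshold of 0.05 in limma, nor did any of the other genes, so 0 of 92 stood against a background of 0%. At an unadjusted p under 0.05 there were 56 lower and 1 higher, where 10.7% of all genes were lower and 4.31% higher. In 54 members every EPN Sox9-GOF library lay below every control, against 12.5% of all genes, and in 2 every one lay above, against 9.45%. edgeR called 0 members and DESeq2 31, all lower, against a background of 5.77% of genes called by DESeq2 (4.94% lower, 0.829% higher). An exact permutation test of 3 against 3 libraries cannot give a p below 0.1.

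**Figure D1:**
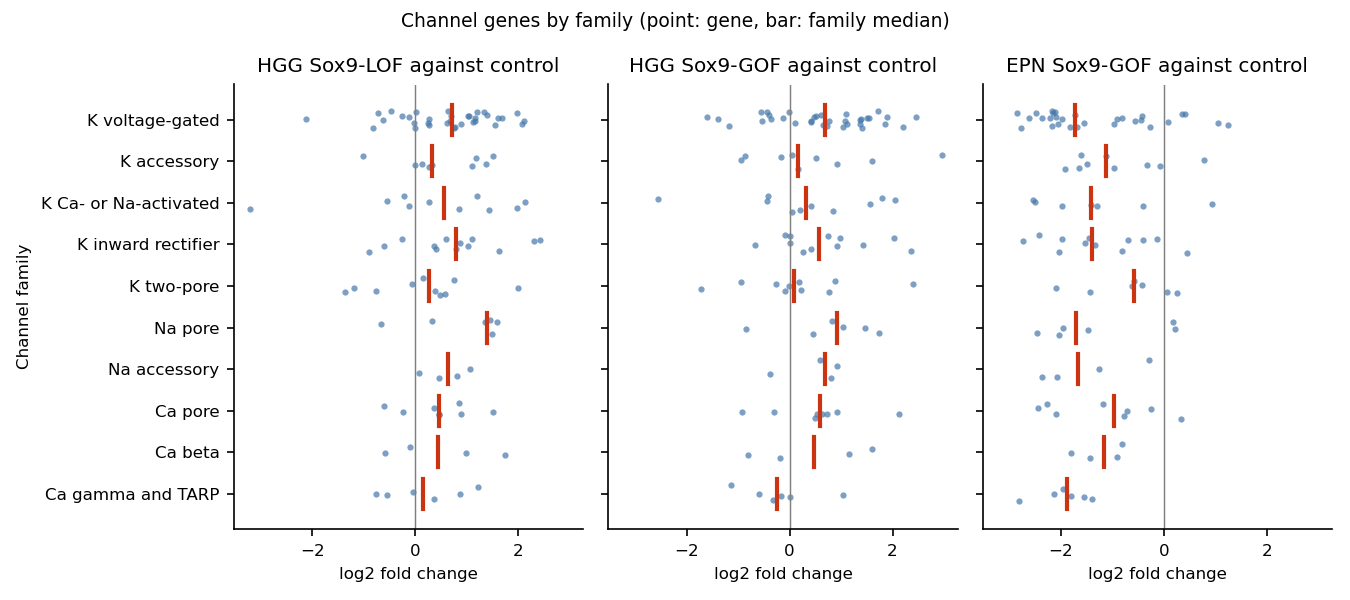
Each point is the log2 fold change (horizontal axis) of 1 tested channel gene in the comparison named above the panel, grouped by family (vertical axis), and each red bar is a family median. In EPN Sox9-GOF against control all 10 family medians lie below 0, from -1.88 for the gamma subunits to -0.58 for the two-pore family.

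The calcium channel pores with the smallest p were those of synapses and burst firing. Cacna1e, the R-type pore, was 286, 189 and 157 in EPN controls 1, 2 and 3 and 43.3, 55.8 and 39.4 in EPN Sox9-GOF 1, 2 and 3. The groups did not overlap, and the log2 fold change was -2.09 (SE 0.31, limma adjusted p = 0.133). Cacna1b, the N-type pore of presynaptic terminals, was 205, 172 and 208 in controls and 48.3, 46.2 and 17.3 in EPN Sox9-GOF (-2.44, SE 0.42, limma adjusted p = 0.133). Cacna1g, a T-type pore, was 310, 157 and 207 in controls and 40.4, 28.8 and 66.3 in EPN Sox9-GOF (-2.27, SE 0.40, limma adjusted p = 0.133). For Cacna1b and Cacna1g, too, every control lay above every EPN Sox9-GOF library.

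Not all calcium pores followed. Cacna1i, another T-type pore, was 844, 947 and 739 in controls and 1014, 902 and 1184 in EPN Sox9-GOF, with overlapping groups and a log2 fold change of 0.34. Cacna1c, the L-type pore of heart, muscle and brain, was 261, 331 and 350 in controls and 394, 197 and 213 in EPN Sox9-GOF, again overlapping. In all, 4 of 8 tested calcium pores were lower at an unadjusted p under 0.05 and 0 higher. All 4 beta subunits, which carry the pore to the membrane, were lower at that level, and 5 of 6 tested gamma subunits. Cacnb4 was 179, 216 and 345 in controls and 67.1, 62.8 and 65.3 in EPN Sox9-GOF, an almost constant level (-1.81, SE 0.29, limma adjusted p = 0.133). 

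Among voltage-gated potassium channels 16 of 29 tested members were lower at an unadjusted p under 0.05 and 0 higher. Kcna2, which sits beside the nodes of axons, was 260, 229 and 503 in controls and 95.9, 56.7 and 34.6 in EPN Sox9-GOF (-2.37, SE 0.45, limma adjusted p = 0.147). The Kcna2 groups did not overlap. Kcnip3, a calcium-binding accessory subunit of the Kv4 channels, was 240, 275 and 389 in controls and 74.3, 105 and 53.8 in EPN Sox9-GOF (-1.92, SE 0.32, limma adjusted p = 0.133), with no overlap.

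Sodium channel pores of neurons had lower values too. Scn8a, the main pore of mature nodes, was 137, 225 and 414 in EPN controls and 88, 31.4 and 23 in EPN Sox9-GOF. Scn1a was 75, 76.6 and 236 in controls and 42.5, 12.2 and 36.5 in EPN Sox9-GOF. Of 6 tested sodium pores 3 were lower at an unadjusted p under 0.05, and of 4 accessory subunits 3.

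The inward rectifiers with high levels split. Kcnj10 was 3933, 4148 and 4250 in EPN controls and 1157, 2508 and 1354 in EPN Sox9-GOF (-1.33, SE 0.28, limma adjusted p = 0.147). All Kcnj10 controls lay above all EPN Sox9-GOF libraries. Kcnj12 was 2876, 3307 and 2738 in controls and 3322, 3719 and 4932 in EPN Sox9-GOF (0.46, SE 0.19, limma adjusted p = 0.319), where every EPN Sox9-GOF library lay above every control. Kcna5, the Kv1.5 pore of atrium and smooth muscle, was 994, 341 and 1069 in controls and 1262, 1063 and 2218 in EPN Sox9-GOF, the lowest of which, at 1063, was just under the highest control on this scale. On the deposited scale of that table the Kcna5 groups did not overlap (1.06, SE 0.48, limma adjusted p = 0.358). Of 12 tested inward rectifiers 8 were lower and 1 higher at an unadjusted p under 0.05, and of 7 two-pore genes 2 were lower. Kcnk10, the gene with both pore loops shown above, was 19, 24.8 and 21.8 in EPN controls and 4.33, 12.2 and 0.96 in EPN Sox9-GOF, without overlap (-2.09, SE 0.75, limma adjusted p = 0.257).

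**Figure D2:**
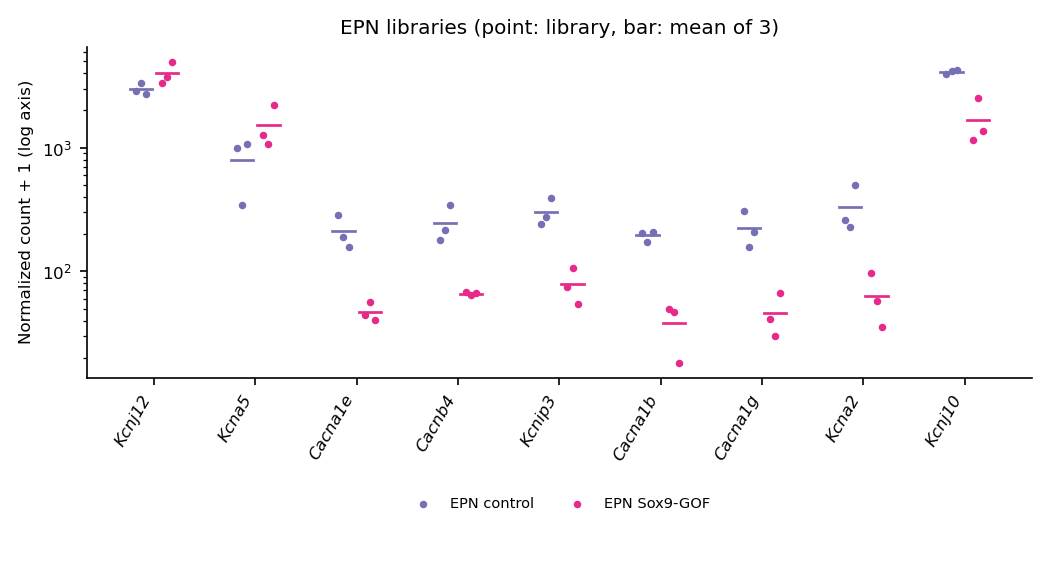
Points are the normalized counts plus 1 (vertical axis, log scale) of the 6 EPN libraries for 9 channel genes named with statistics in that comparison (horizontal axis), and bars are means of 3. The control points of the 7 genes from Cacna1e to Kcnj10 all lie above the EPN Sox9-GOF points, while Kcnj12 reaches 4932 and Kcna5 2218 in EPN Sox9-GOF.

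Markers of several cell types moved with these genes. All 12 neuron markers had a log2 fold change below 0 (median -2.29), and their sum was 7763 to 16443 in EPN controls and 2266 to 4278 in EPN Sox9-GOF. All 7 astrocyte markers (sum 35971 to 43067 against 5994 to 27064), all 6 oligodendrocyte precursor markers (5194 to 5415 against 1270 to 2824) and all 6 mature oligodendrocyte markers (16319 to 34500 against 1928 to 23106) were below 0 too. The sum of the 5 skeletal muscle markers was 3756 to 4859 in controls and 4662 to 7449 in EPN Sox9-GOF. Nearly all of it was Tnnt3 (mean 3904 and 5904). Ttn averaged 204 and 259, Ckm 4.23 and 9.8, Acta1 11.8 and 11, and Myh1 9.31 and 4.38. Of 3 tested skeletal muscle markers 2 were above 0 and 1 below. The 6 pericyte and smooth muscle markers (median -0.72) and the 4 endothelial markers (median -0.51) were all below 0, as were 4 of 5 microglia and macrophage markers (median -0.80), while 5 of 6 lymphocyte markers were above 0 (median 1.15). None of these markers was called, and their part in the channel values was not tested. Leaving out each library in turn kept the median of the members between -1.53 and -1.24.

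Other genes of the same pathways, from a list of 28 that help channels reach or stay in the membrane, gave the same picture. Of 23 tested, 20 had a log2 fold change below 0, and 0 were called, as for all genes. At an unadjusted p under 0.05, 14 were lower and 0 higher, where 10.7% of all genes were lower and 4.31% higher. Ank3, the anchor of sodium channels at the start of the axon, had -1.77 (SE 0.30, limma adjusted p = 0.133), and Nfasc, its partner at nodes, -1.68 (SE 0.30, limma adjusted p = 0.139). Dpp6, an accessory subunit of Kv4 channels, had -2.01 (SE 0.40, limma adjusted p = 0.147).

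Promoters were searched for 2 motifs of the SOX family, to which Sox9 belongs. In RefSeq windows of 250 bases before to 50 after a start (GRCm38.p6), 92 of 126 members matched, with 127 promoters. The motif AACAAT, read on both strands, was in 7.87% of them and in 10.7% of all 32851 promoters. ACAAAG was in 17.3% and 18.7%. The 2 inward rectifiers with the highest levels in the EPN libraries are shown because their values went different ways, with a match to ACAAAG in capitals. No match says only that these letters are not in this window.
Kcnj10 at chr1:172340960-172341259, plus strand: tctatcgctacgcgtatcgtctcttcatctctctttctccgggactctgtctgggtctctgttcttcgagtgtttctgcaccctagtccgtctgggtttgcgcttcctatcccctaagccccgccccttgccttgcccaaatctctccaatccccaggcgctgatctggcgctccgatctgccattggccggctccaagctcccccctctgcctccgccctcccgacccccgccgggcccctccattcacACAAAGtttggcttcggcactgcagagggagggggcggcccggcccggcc
Kcnj12 at chr11:61065554-61065853, plus strand: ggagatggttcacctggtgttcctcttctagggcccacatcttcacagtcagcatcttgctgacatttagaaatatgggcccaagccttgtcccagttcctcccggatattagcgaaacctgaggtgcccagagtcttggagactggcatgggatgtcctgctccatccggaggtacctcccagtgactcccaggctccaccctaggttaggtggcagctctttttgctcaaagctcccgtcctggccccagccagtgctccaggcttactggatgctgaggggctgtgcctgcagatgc

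The second comparison, between the control tumours, shows which channel genes separate ependymoma from high-grade glioma. Here limma called 17 of 105 tested members, 9 higher and 8 lower in EPN, against a background of 15.3% of all 15105 genes (9.51% higher, 5.83% lower). The share of members was thus close to that of all genes. The median log2 fold change of the members was -0.92, against 0.00 over all genes, and 81 of 105 were below 0. It was -1.67 without HGG control 1 and -0.36 without HGG control 3, where 64 of 100 were below 0. edgeR called 18 and DESeq2 40, against 15% and 29.1% of all genes.

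The 9 genes called higher in EPN controls include Kcnj12 and Kcna5. Kcnj12 was 86.5, 80 and 66.8 in HGG controls and 2876, 3307 and 2738 in EPN controls, a log2 fold change of 5.24 (SE 0.18, limma adjusted p = 0.00022). Kcna5 was 29.4, 6.15 and 12.8 in HGG controls and 994, 341 and 1069 in EPN controls (5.63, SE 0.67, limma adjusted p = 0.00608). For both, every EPN control lay above every HGG control, and both were called whichever of the 6 libraries was left out.

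Kcnh2, the HERG pore of cardiac repolarization, was 150, 312 and 207 in HGG controls and 769, 891 and 462 in EPN controls (1.67, SE 0.36, limma adjusted p = 0.0296). Kcnq1, another cardiac and epithelial pore, was 10.3, 0 and 2.84 in HGG controls and 41.2, 51.8 and 104 in EPN controls (4.13, SE 0.96, limma adjusted p = 0.0361). Kcne3, an accessory subunit that keeps Kcnq1 channels open, was 1.59, 0 and 1.42 in HGG controls and 29.6, 69.9 and 117 in EPN controls (5.11, SE 0.75, limma adjusted p = 0.01). For both subunits every EPN control lay above every HGG control.

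Scn10a, the sodium pore of pain-sensing neurons, had 1 read in the HGG controls together and 420 in the EPN controls. That is a ratio of 535 with a counting interval of 95.5 to 21188, which covers counting error only, and the gene was called at a limma adjusted p of 0.013. Its EPN control values ranged widely, at 348, 84.5 and 24.9. Kcnj8, the ATP-sensitive inward rectifier of pericytes and smooth muscle, was 11.1, 18.5 and 44 in HGG controls and 96.1, 142 and 112 in EPN controls (2.40, SE 0.54, limma adjusted p = 0.0319). Kcng4, a modifier subunit without a current of its own, was 13.5, 41 and 46.2 against 104, 122 and 208 (2.18, SE 0.55, limma adjusted p = 0.0454).

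Of the 8 genes called lower in EPN controls, 3 were TARPs. Cacng7 was 617, 592 and 607 in HGG controls and 174, 126 and 162 in EPN controls (-1.98, SE 0.20, limma adjusted p = 0.00448), and was called whichever library was left out. Cacng8 was 112, 176 and 269 against 25.4, 25.9 and 31.1 (-2.63, SE 0.39, limma adjusted p = 0.0103). Cacng4 was 402, 740 and 183 against 73.9, 49.6 and 63.8 (-2.60, SE 0.51, limma adjusted p = 0.0224). Every HGG control lay above every EPN control for all 3.

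Cacnb3 (785, 1027 and 1962 against 278, 251 and 429) and Kcna6 (596, 1913 and 930 against 298, 266 and 362) were called as well, with log2 fold changes of -1.90 and -1.73 (limma adjusted p = 0.0246 and 0.0415). So were 2 accessory subunits of the Kv4 channels. Kcnip1 was 84.9, 303 and 213 in HGG controls and 52.8, 27 and 38.9 in EPN controls, and Kcnip3 was 633, 2786 and 1230 against 240, 275 and 389. Their log2 fold changes were -2.18 and -2.13, with limma adjusted p of 0.0418 and 0.0433.

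**Figure D3:**
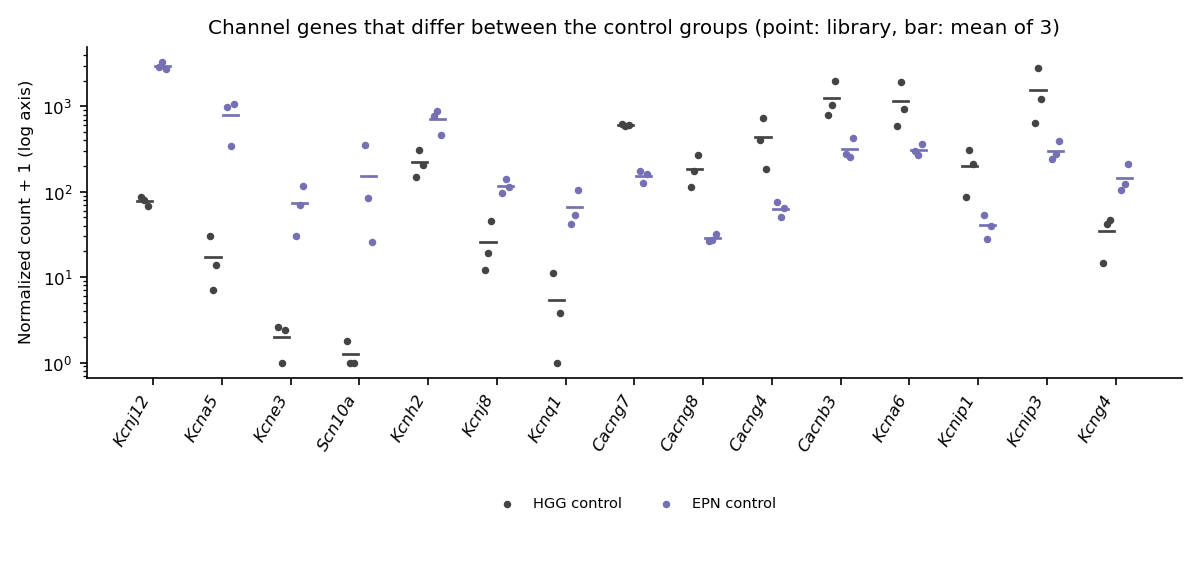
Points are normalized counts plus 1 (vertical axis, log scale) of the 3 HGG and 3 EPN control libraries for 15 of the channel genes called between them (horizontal axis), and bars are means. The first 7 genes and Kcng4 are higher in EPN and the other 7 lower. Their groups do not overlap, but no overlap was part of the rule that named most of them. Of 105 tested members 13 were higher and 19 lower without overlap, where 21.9% of all genes were higher and 18.4% lower.

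Markers of cell types moved between the control groups as well. The neuron markers had a log2 fold change below 0 in 12 of 12 cases (median -0.89, 0 called) and the astrocyte markers above 0 in 6 of 7 (median 0.86, 0 called). The 4 endothelial markers summed to 425 to 1001 in HGG controls and 2078 to 3033 in EPN controls, and the 6 pericyte and smooth muscle markers to 424 to 890 and 3535 to 4528. Most of the latter EPN sum was Pdgfrb (mean 179 in HGG and 2912 in EPN controls). Rgs5 averaged 53.7 and 374, Abcc9 37.9 and 202, Tagln 198 and 404, Acta2 152 and 172, and Myh11 18 and 24.1. The 5 skeletal muscle markers summed to 14.3 to 114 and 3756 to 4859, nearly all of it Tnnt3 (mean 2.21 and 3904), while Ckm, Acta1 and Myh1 averaged 4.23, 11.8 and 9.31 in EPN controls. The 6 oligodendrocyte precursor markers summed to 13533 to 47237 and 5194 to 5415. limma called 3 of the 4 endothelial, 3 of the 6 pericyte and smooth muscle and 3 of the 6 oligodendrocyte precursor markers. It also called 2 of 3 tested skeletal muscle and 2 of 5 microglia and macrophage markers. In the mature oligodendrocyte, choroid plexus, lymphocyte and ependymal lists 0 were called. Of all genes tested 15.3% were called. The part of these markers in the channel values was not tested. The count of 17 was moved by single libraries: it was 48 without HGG control 1, 11 without HGG control 3, and 6, 4 and 8 without EPN controls 1, 2 and 3. The share of all genes called moved with it, to 24.2%, 12.7%, 4.27%, 2.43% and 4.63%.

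Among the other pathway genes 8 of 25 tested were called, against 15.3% of all genes. Cacna2d2, a calcium channel subunit that anchors the pore at the surface, was 47.6, 129 and 190 in HGG controls and 2767, 1929 and 2071 in EPN controls (4.39, SE 0.50, limma adjusted p = 0.00555). Rest, the repressor of neuronal genes, had a log2 fold change of 2.06 (limma adjusted p = 0.0167), Stac2 2.31, Dpp6 -2.62 and Ank3 -1.85. The remaining 3 were Hcn3, Fgf11 and Nalcn, all lower in EPN controls.

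The third comparison asks whether Sox9-GOF acted on the channel genes in the same way in both tumour types, as the difference between its effect in EPN and its effect in HGG. limma called 9 of 107 tested members, all with a more negative effect in EPN, against a background of 6.1% of all genes (3.47% in that direction). The median difference was -2.01 over members and -0.05 over all 15088 genes, and 89 of 107 were below 0. At an unadjusted p under 0.05 there were 47 in that direction, where 15.6% of all genes were. Of 86 members tested in all 3 fits, 55 had values lower in EPN Sox9-GOF and higher in HGG Sox9-GOF than in their controls, 21 were lower in both, 3 higher in both and 7 higher in EPN alone. Without HGG control 1 these counts were 31, 45, 2 and 8, so the direction in HGG turned on that library for many members.

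Kcnj16, a glial inward rectifier that pairs with Kcnj10, had the smallest p. It was 163, 236 and 141 in HGG controls and 613, 820 and 702 in HGG Sox9-GOF, but 78.2, 159 and 68.5 in EPN controls and 36, 45.3 and 18.2 in EPN Sox9-GOF. Neither pair of groups overlapped, in opposite directions, and the difference was -3.58 (SE 0.56, limma adjusted p = 0.0185). It was called whichever of the 12 libraries was left out.

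Scn3a, the sodium pore of the embryonic brain, was 74.6, 144 and 158 in HGG controls and 309, 538 and 366 in HGG Sox9-GOF. In EPN it was 41.2, 34.9 and 88.7 in controls and 18, 7.85 and 9.6 in Sox9-GOF, for a difference of -3.80 (SE 0.64, limma adjusted p = 0.0189). Cacnb4 was 140, 385 and 538 in HGG controls and 1151, 662 and 1004 in HGG Sox9-GOF, beside the EPN values given above, a difference of -3.42 (SE 0.62, limma adjusted p = 0.0203). For both genes every Sox9-GOF library lay above the controls in HGG and below them in EPN.

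Cacna1e was 48.4, 213 and 406 in HGG controls and 557, 589 and 1036 in HGG Sox9-GOF, a difference of -4.24 (SE 0.88, limma adjusted p = 0.0259). Kcnd3, the Kv4.3 pore of transient potassium currents, was 211, 568 and 408 in HGG controls and 567, 989 and 808 in HGG Sox9-GOF, but 97.2, 154 and 154 in EPN controls and 46.9, 49.7 and 19.2 in EPN Sox9-GOF (-2.93, SE 0.62, limma adjusted p = 0.0269). In HGG the lowest Kcnd3 value of Sox9-GOF, 567, nearly met the highest control, 568.

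The other 4 called members were Kcnab1, a Kv1 beta subunit (-3.27, limma adjusted p = 0.0374), Kcnn3, a small-conductance calcium-activated channel (-4.10, limma adjusted p = 0.0383), Kcnh5, an ether-a-go-go channel (-3.42, limma adjusted p = 0.0419), and Kcne4, an inhibitory accessory subunit (-3.06, limma adjusted p = 0.0431). Kcnh5 had 3.17, 4.51 and 14 in EPN controls and 1.44, 0.872 and 0 in EPN Sox9-GOF, too little to be tested there alone. Kcne4 differs in kind: it was 19, 43.1 and 12.8 in HGG controls and 253, 233 and 89.4 in HGG Sox9-GOF, while in EPN it stayed at 25.4, 20.3 and 42 and 20.9, 20.9 and 37.4, groups that overlap. The call of a difference there rests on the HGG values.

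In the opposite direction limma called 0 members, where 2.63% of all genes were called. The smallest adjusted p there was that of Kcnn4, an intermediate-conductance calcium-activated channel of immune and epithelial cells. It was 280, 55.4 and 104 in HGG controls and 30.1, 10.3 and 21 in HGG Sox9-GOF, but 65.5, 75.5 and 21.8 in EPN controls and 91.6, 149 and 50.9 in EPN Sox9-GOF (3.46, SE 0.97, limma adjusted p = 0.0575). With the replicate number as a block Kcnn4 was called (limma adjusted p = 0.0472), as it was by DESeq2 and with a spread shared by all 15 libraries, while Kcnab1 and Kcnh5 lost their calls under the block (limma adjusted p = 0.0682 and 0.0882). Kcnj12 had a difference of 0.52 (limma adjusted p = 0.569), which sat inside its error. Kcnh4, Kcne3, Kcnh2, Kcnk5 and Kcnab3 had differences of 1.92, 1.36, 0.61, 0.50 and 0.59, at limma adjusted p of 0.321 to 0.698.

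**Figure D4:**
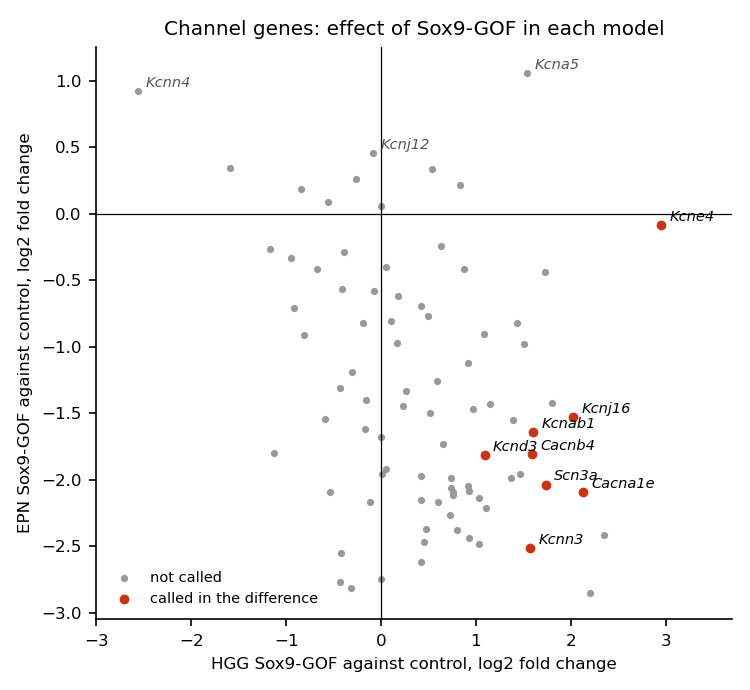
Each point is a channel gene tested in all 3 fits, with the log2 fold change of Sox9-GOF against control in HGG on the horizontal and in EPN on the vertical axis. Of the 9 genes called in the difference, 8 are shown in red to the right of 0 (Kcnh5 was not tested in EPN), and 7 of those 8 lie below -1.5 on the EPN axis.

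These 9 calls changed when base composition was corrected for and when single libraries were left out. Across all genes the difference between effects correlated with the GC content of the exons (Spearman's rho 0.42 across genes, which are not independent replicates), and across members by 0.45. With GC content and length corrected for in each library 0 of 107 members were called, with differences of -2.99 for Kcnj16 (limma adjusted p = 0.0537) and -2.69 for Scn3a (limma adjusted p = 0.0562), while 48 had a difference below 0 at an unadjusted p under 0.05, where 8.77% of all genes did. Of these 48, 41 were among the 47 of the uncorrected fit. The corrected differences of the 9 ranged from -2.24 to -3.44. Leaving out HGG control 3 raised the count to 35, with 14.2% of all genes called. Leaving out HGG Sox9-GOF 3 or EPN control 3 lowered it to 1, EPN control 2 to 2, HGG Sox9-GOF 2 to 3, HGG Sox9-GOF 1 or EPN Sox9-GOF 3 to 4, and EPN control 1 to 5. In those fits 0.291% to 2.93% of all genes were called.

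The other pathway genes had 3 calls of 26 in the difference, where 6.1% of all genes were called. Nalcn, the sodium leak channel, was 221, 256 and 489 in HGG controls and 699, 842 and 744 in HGG Sox9-GOF, but 109, 118 and 112 in EPN controls and 42.5, 35.8 and 13.4 in EPN Sox9-GOF (-3.33, SE 0.57, limma adjusted p = 0.0189). Dpp6 and Ank3 had -2.14 and -1.78. Neuron markers lay below 0 in 12 of 12 cases (median -3.07, 1 called) and astrocyte markers in 7 of 7 (median -3.05, 0 called). Below 0 as well were 6 of 6 oligodendrocyte precursor (median -1.29, 1 called) and 5 of 6 mature oligodendrocyte markers (-1.40, 1 called). The same held for 6 of 6 pericyte and smooth muscle (-1.40, 1 called) and 4 of 5 microglia and macrophage markers (-1.46, 1 called). Ependymal (3 of 3), endothelial (3 of 4) and skeletal muscle (2 of 3) markers followed, with 0 called. Above 0 were 6 of 6 lymphocyte (2.95) and 5 of 6 choroid plexus markers (0.75), with 0 called. Their part was not tested.

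In the HGG tumours alone, Sox9-LOF and Sox9-GOF were each compared with the same 3 controls, so the 2 sets of values below are not independent. limma called 0 of 104 members for Sox9-LOF and 0 of 103 for Sox9-GOF, and 0% of all genes in both. At an unadjusted p under 0.05, 15 members were higher and 2 lower in Sox9-LOF, where 9.12% of all genes were higher and 8.14% lower. In Sox9-GOF 13 were higher and 2 lower, where 11.7% were higher and 11% lower. edgeR called 0 in both. DESeq2 called 2 in Sox9-LOF, 1 in each direction, against 9.01% of all genes (4.23% higher, 4.78% lower), and 7 in Sox9-GOF, 5 higher and 2 lower, against 7.26% higher and 7.72% lower. The median log2 fold change was 0.61 for Sox9-LOF and 0.51 for Sox9-GOF.

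These medians turned on HGG control 1. Without it they were -0.05 in both comparisons, and without HGG control 3 they were 1.04 and 0.98. The medians therefore changed sign with 1 library, and its low neuron marker sum and high choroid plexus sum, given above, go with that change. The neuron markers had a log2 fold change above 0 in 12 of 12 cases for Sox9-LOF (median 1.05) and 10 of 12 for Sox9-GOF (median 0.95). Astrocyte markers were above 0 in 7 of 7 cases in both, with medians of 1.46 and 1.13. Ependymal and cilia markers were above 0 in 5 of 5 cases for Sox9-LOF (median 1.86) and 3 of 4 for Sox9-GOF (median 0.97). For Sox9-GOF all 6 choroid plexus and all 4 endothelial markers were below 0 and all 5 microglia and macrophage markers above. For Sox9-LOF these lists had markers on both sides of 0. In every list 0 were called. Their part was not tested.

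Some members separated the groups in every library. Of 104 tested members 17 were higher and 3 lower in the libraries labelled Sox9-LOF without overlap, where 12.8% and 11.7% of all genes were. In Sox9-GOF 16 of 103 were higher and 2 lower without overlap, where 15.3% and 15.2% of all genes were. Kcnj16 in HGG Sox9-GOF, with the values above, had a log2 fold change of 2.02 (SE 0.26, limma adjusted p = 0.059), just over the threshold, and passed it at a minimum mean of 50 (limma adjusted p = 0.049) and in DESeq2. Kcnj16 was called in 3 of 10 alternative settings of limma, edgeR and DESeq2, where its adjusted p reached 0.354 and its log2 fold change was 1.52 to 2.04. When 1 library was left out its limma adjusted p was 0.0638 to 0.239. In the libraries labelled Sox9-LOF it was 130, 336 and 446, which overlaps the controls. Scn3a was 293, 254 and 481 there, with a log2 fold change of 1.45 (SE 0.39, limma adjusted p = 0.174), and 1.74 (SE 0.37, limma adjusted p = 0.0722) in Sox9-GOF. Both groups lay above all controls for Scn3a. Kcna3, a Kv1 pore also known from lymphocytes and microglia, was 13.5, 10.3 and 23.4 in controls, 50.3, 30.6 and 44.5 in Sox9-LOF and 54.6, 47 and 50 in Sox9-GOF, again without overlap.

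Kcnn4 had lower values in both: beside 280, 55.4 and 104 in controls it was 17.5, 6.81 and 13.4 in the libraries labelled Sox9-LOF (-3.21, SE 0.67, limma adjusted p = 0.143), and had -2.57 (SE 0.69, limma adjusted p = 0.102) in Sox9-GOF. The 6 lymphocyte markers had a log2 fold change below 0 in 6 of 6 cases in both comparisons, and their part was not tested. Cacnb4 was 1394, 595 and 1326 in the libraries labelled Sox9-LOF (1.74, limma adjusted p = 0.213). Kcnj2, the Kir2.1 inward rectifier next to Kcnj16, was 26.2, 71.8 and 102 in controls, 167, 119 and 296 in Sox9-LOF and 154, 121 and 199 in Sox9-GOF. Both groups lay above the controls for Cacnb4 and Kcnj2.

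Kcnd3 (1.21), Kcnn3 (2.13) and Kcnab1 (1.52) were further named members with a log2 fold change above 0 and no overlap in the libraries labelled Sox9-LOF, at limma adjusted p of 0.204 to 0.25. Kcnk5 (-1.36) and Cacng8 (-0.77) were those below 0. In Sox9-GOF the remaining ones were Kcne4 (2.96, limma adjusted p = 0.0712), Kcnh5 (1.36), Cacna1e (2.13) and, below 0, Cacnb3 (-0.81).

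**Figure D5:**
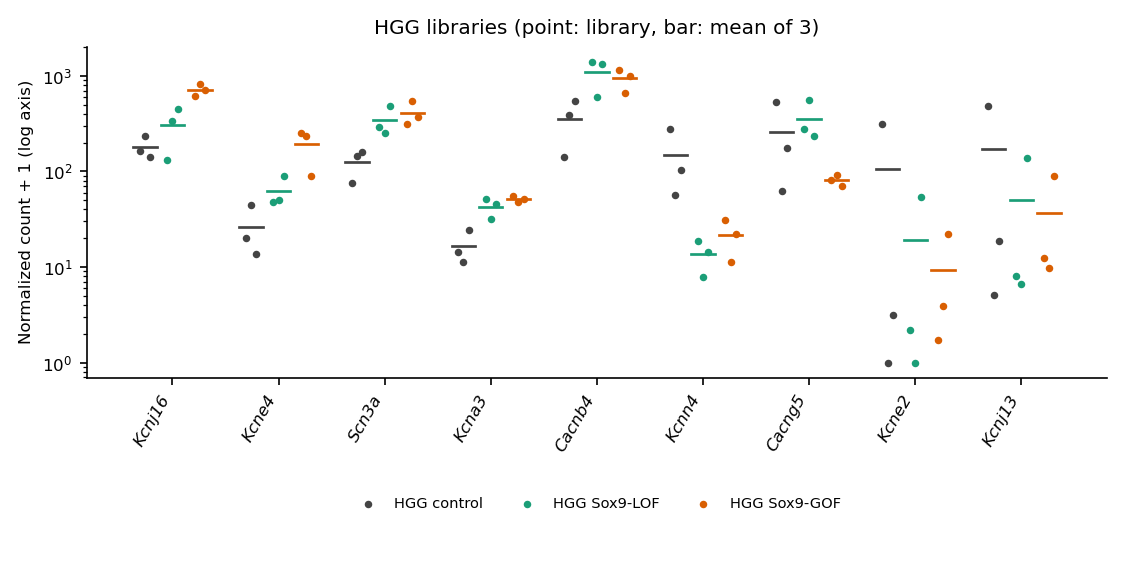
Points are normalized counts plus 1 (vertical axis, log scale) of the 9 HGG libraries for 9 channel genes (horizontal axis), and bars are means of 3. Kcnj16 and Kcne4 are highest in the 3 Sox9-GOF libraries, Kcnn4 highest in controls, and Kcne2 and Kcnj13 reach their top values, 310 and 485, in 1 control library.

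Setting the HGG Sox9-GOF libraries against those labelled Sox9-LOF leaves the controls out. limma called 0 of 105 members and 0% of all genes, edgeR 0 and DESeq2 1 (0.935% of all genes). At an unadjusted p under 0.05, 3 members were higher and 5 lower in Sox9-GOF, close to the 3.95% and 3.46% of all genes. Without overlap 4 members were higher and 9 lower, where 6% and 7.6% of all genes were. The median was 0.01, and -0.30 without the library labelled Sox9-LOF 2, with 24 members above and 81 below 0. Cacng5, a TARP-related gamma subunit, was 278, 558 and 233 in Sox9-LOF and 81.1, 90.3 and 69.3 in Sox9-GOF, groups that do not overlap (-2.04, SE 0.34, limma adjusted p = 0.482). It was the member called by DESeq2 (-2.15, DESeq2 adjusted p = 0.000171). Controls spanned both groups at 532, 61.5 and 173.

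Kcnk2, the mechanosensitive TREK-1 channel, was 461, 479 and 441 in Sox9-LOF and 258, 350 and 303 in Sox9-GOF. Kcne4 was 46.8, 48.8 and 89 in Sox9-LOF and 253, 233 and 89.4 in Sox9-GOF, with 89 and 89.4 almost touching. Kcna6 was 649, 527 and 707 in Sox9-LOF and 1031, 838 and 913 in Sox9-GOF. The limma adjusted p of these 3 was 0.62. The other named members without overlap were Kcnj16 (1.39) and Kcnk5 (1.07), higher in Sox9-GOF, and Kcng4 (-1.48), Kcnab3 (-1.10), Kcnj5 (-1.54), Kcnk4 (-0.97) and Kcnh2 (-0.33), lower in Sox9-GOF, at limma adjusted p of 0.62 to 0.751.

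A last set of 4 members followed single libraries rather than groups. Kcne2 and Kcnj13, the accessory subunit and the inward rectifier of choroid plexus, were 310 and 485 in HGG control 1, 53.4 and 136 in the library labelled Sox9-LOF 3, and 21 and 87.7 in HGG Sox9-GOF 3. In the other 12 libraries Kcne2 was at most 2.94 and Kcnj13 at most 24. Ttr, the most abundant choroid plexus transcript, was 105040, 23243 and 9150 in the same 3 libraries and at most 360 in the others. Scn7a, a sodium-sensing channel, was 1812 in HGG control 2 and 40.3 to 297 in the other 14 libraries. Kcnh8 was 256 in HGG control 2 and at most 21.1 in any other library.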

How the data were processed

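RNA from 15 mouse brain tumour libraries was measured by poly(A) RNA-seq, per the labels' protocols from 300 ng of total RNA with a stranded TruSeq kit. The submitters' processing notes list STAR 2.5.0a, DESeq2 1.30.1, MultiQC 1.11, FastQC 0.11.7 and the build mm10, and assign them no role. Counter, strand setting and annotation: not given in the sources used here. The deposited values, in 3 tables of 6 libraries, are a signal per gene: as the values show, reads divided by a size factor of each library. Whole reads were recovered for 100% of values within 0.001 read. Both HGG tables hold the same reads for the 3 HGG controls. The tables hold 6 empty unnamed columns. Names of 27 genes look like dates and were kept in the tests. Samples were grouped by title.

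The main test was limma 3.58.1 (trended, R 4.3.3) on log2 of the normalized count plus a pseudocount of 1. Genes averaging 10 or more were tested, and p-values were adjusted by Benjamini-Hochberg over all of them (threshold 0.05). Fold changes on that scale understate the change of low genes. Each deposited table was fitted alone. Recovered reads of all 15 libraries, rescaled together by the median of ratios, gave the printed levels and the fits of EPN control against HGG control, HGG Sox9-GOF against HGG Sox9-LOF and the difference between effects. Alternatives were edgeR 4.0.16 and DESeq2 1.42.0 on recovered reads, another scaling, pseudocount, filter or spread, a replicate block, leaving out each library, and, chosen after seeing the data, a correction for GC content and length by a spline with 5 degrees of freedom. The fit was tested on simulated data.

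All 126 members matched GENCODE vM21 for GRCm38, the build also called mm10. Members and lists were chosen with earlier results of these data known. In each comparison up to 8 members per direction were named by smallest limma p, among those without overlap between groups and averaging 1 or more in log2 CPM (no rule on overlap for the difference between effects), plus all called members where at most 30. Some members that this rule names are not reported here; counts include them. Other members printed with values were chosen after their values were seen. Of the 11 marker lists, the microglia and macrophage list had 5 of 5 members above 0 in EPN controls against HGG controls.

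Replicate numbers run through all groups. Deviations of same-numbered libraries correlated at 0.178, 0.443 and 0.224 for HGG Sox9-GOF and HGG control, each above 0.1. In the other comparisons at least 1 pair was below 0.1. The best match of HGG controls 1 and 2 was the Sox9-GOF library of the same number, but that of HGG control 3 was not. Each Sox9-LOF library was best matched by the Sox9-GOF library of its number. Whether the numbers pair the samples is thus not settled, and the main fits treat the libraries as unpaired.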

Additional observations from a re-analysis of the deposited data

Results flagged for a closer look

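For 9 channel genes the effect of Sox9-GOF differed between EPN and HGG by a test of the difference itself (limma, Benjamini-Hochberg adjustment over all genes, 3 libraries in each of 4 groups). The log2 differences, EPN minus HGG, were -3.58 for Kcnj16, -3.80 for Scn3a, -3.42 for Cacnb4, -4.24 for Cacna1e and -2.93 for Kcnd3. They were -3.27 for Kcnab1, -4.10 for Kcnn3, -3.42 for Kcnh5 and -3.06 for Kcne4. Kcnj16 was called in 12 of 12 fits that left out 1 library, Scn3a in 10, Cacnb4 in 9 and Kcnd3 in 8. Cacna1e was called in 5 of these fits, Kcnn3 in 4, Kcnh5 in 3, and Kcnab1 and Kcne4 in 2 each. None of the 9 was called after the correction for GC content and length, which left differences of -2.24 to -3.44.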

How the results depend on the processing

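The number of channel genes called was 0 by limma for HGG Sox9-LOF, HGG Sox9-GOF, EPN Sox9-GOF and HGG Sox9-GOF against Sox9-LOF, 17 between the controls and 9 in the difference between effects. DESeq2 called 2, 7, 31, 1, 40 and 25 in that order, and 9.01%, 15%, 5.77%, 0.935%, 29.1% and 16.4% of all genes. A spread shared by all 15 libraries called 2, 7, 5, 32 and 23, in the same order without HGG Sox9-GOF against Sox9-LOF, where it called 0; it called 7.19%, 14.8%, 0.86%, 27.6% and 10.02% of all genes. A minimum mean of 50 called 1 member, Kcnj16, in HGG Sox9-GOF, and moved the median for EPN Sox9-GOF to -0.98 with 59 members tested. With the correction for GC content and length, alone and with the replicate block, 0 were called in the difference between effects. Leaving out 1 library gave 4 to 48 calls between the controls and 1 to 35 in the difference, and 0 in the other comparisons. The replicate block gave 12 calls between the controls, 10 of them shared with the 17. In the difference it gave 8, 7 of them shared with the 9 and the other Kcnn4, higher. It gave 0 elsewhere, the HGG Sox9-GOF comparison included. Counts under the other settings stayed within 1.5 times. Cacng8 in Sox9-LOF had a log2 fold change of 0.046 after the GC and length correction, with and without the block. When 1 library was left out, the difference between effects ran from -0.013 to 0.882 for Kcnj12 (lowest without HGG Sox9-GOF 2), which was not called. The correction moved the median of all genes from 0.04 to 0.16 in EPN Sox9-GOF, from 0.00 to -0.11 between the controls and from -0.05 to 0.21 in the difference, where the members' medians were then -1.31, -1.05 and -1.72. The cause was not tested in any of these. With 3 libraries a group and 0 to a few reads for Kcnh5, Kcne3 or Scn10a in some groups, depth limits those ratios.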
